A study of Mus musculus with 18 samples.

Results

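The 50 genes described here encode the machinery of mitosis: the kinases and cyclins that start it, the chromosomal passenger complex, the spindle checkpoint, kinetochore proteins, spindle motors, cytokinesis factors and condensins. They are a list of gene symbols grouped by textbook function, drawn up with earlier results of these data known. Each of the 50 symbols matched exactly 1 of the 26599 rows of the RNA table. All 50 passed a filter of at least 1 FPKM (fragments scaled to gene length and library size) in at least 2 libraries, as did 10736 rows in all.

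The RNA came from MEL cells, a line of mouse erythroleukemia cells in which dimethyl sulfoxide (DMSO) sets off red cell differentiation. Untreated cells (day 0) were compared with cells kept for 5 days in 2% DMSO (day 5), with 2 stranded RNA-seq libraries per day that the labels call biological replicates. The line is a single transformed line, and the labels mention no synchronisation or sorting of the cells by cell cycle phase. FPKM are shares of each library, so the total amount of RNA per cell is not part of the measurement, and in bulk RNA fewer dividing cells and less RNA per dividing cell cannot be told apart.

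As background, mitosis starts when cyclin B binds and activates the kinase Cdk1, and it ends when the anaphase-promoting complex (APC/C) with its activator Cdc20 marks cyclin B and securin for destruction. Most genes of this machinery are transcribed late in the cell cycle. Their promoters are known for CCAAT boxes, bound by the factor NF-Y, and for an element named the cell cycle homology region (CHR), which is read by the MuvB core with either the repressor E2F4 and a pocket protein or the activators MYBL2 and FOXM1. Red cell precursors divide a few last times while they make hemoglobin and then leave the cell cycle.

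After 5 days in DMSO, 0 of the 50 genes passed the test for a difference from day 0 (limma, Benjamini-Hochberg adjusted p under 0.05 over all 10736 genes), and 9 had an unadjusted p under 0.05. Of all genes tested, 18.5% passed that threshold, 10.7% higher (1150 genes) and 7.81% lower (839 genes) on day 5, and 38.6% had an unadjusted p under 0.05. The median log2 fold change of the 50 genes was 0.10, beside 0.15 over all genes tested, and their fold changes spread less, with a standard deviation of 0.40 beside 0.96. A total of 42 of the 50 genes had day means within 1.5-fold of each other, as did 47.6% of all genes tested. The 95% interval of the log2 fold change lay wholly between -1 and 1, which is between a halving and a doubling of FPKM + 1, for 40 of the 50 genes and for 29.5% of all genes. An adjusted p above the threshold does not show that a gene stayed the same. The share of narrow intervals depends on precision as well as on change: the median standard error was 0.18 for the 50 genes and 0.27 for all genes.

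The lowest adjusted p-values belonged to Nusap1 (limma adjusted p = 0.0513), Ccnb1 (0.0573), Ncapd2 (0.0634) and Kif20b (0.0656), just outside the threshold. With genes kept only at 5 FPKM or more, or with globin genes removed before scaling, Nusap1 passed (0.04599 and 0.0493). After quantile normalization, or with mitochondrially encoded genes removed, Ccnb1 passed (0.0382 and 0.0485). These were the only members that passed under any alternative run. Quantile normalization also changed the split of all genes past the threshold to 814 higher and 895 lower. It moved the median of all genes from 0.15 to 0.01, while the median of the 50 genes went from 0.10 to 0.08, so against all genes the list lay slightly below the median with the deposited scaling and slightly above it after quantile normalization.

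Together the 50 genes made up 0.504% and 0.515% of all FPKM on day 0, and 0.541% and 0.522% on day 5. The 4 shares differed little, and both day 5 values lay above both day 0 values. The genes were abundant throughout: their median level ranked at percentile 81.3 of the genes tested on day 0 (range 31.7 to 94.998) and at 83.7 on day 5 (29.1 to 96.6). On day 0 12 genes had a mean over 100 FPKM, and on day 5 13 did. The most abundant on day 0 were Ccna2 (238 ± 25.5 FPKM, SD, n = 2), Top2a (223 ± 1.94), Mki67 (216 ± 9.28) and Birc5 (212 ± 31.2), and their order was not separated by the spread of Ccna2 and Birc5. The lowest were Kif14 (7.13 ± 1.05), Kif18a (12.5 ± 1.66) and Cenpf (13.3 ± 0.380), and the order of the last pair was not separated by their spread. Single genes lay on both sides of day 0: in 23 of the 50 both day 5 libraries lay above both day 0 libraries, and in 14 both lay below, beside 40.2% and 27.0% of all genes tested.

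**Figure D1:**
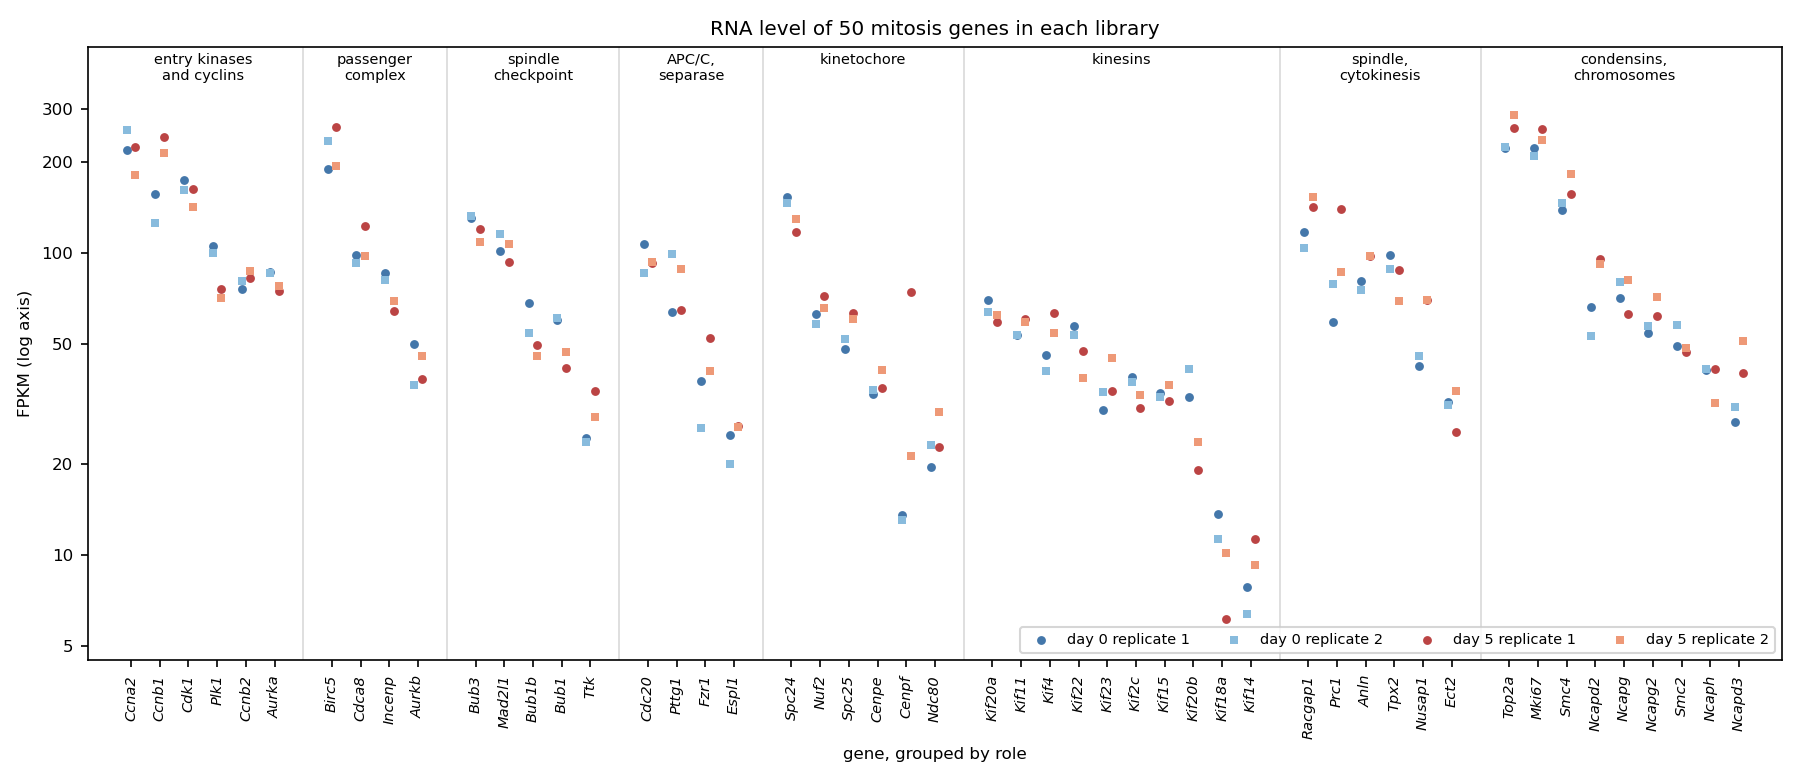
FPKM of each of the 50 genes on a log axis, grouped by role and ordered by mean level within a role, with day 0 libraries in blue, day 5 libraries in red and orange, circles for replicate 1 and squares for replicate 2. Levels run from 6.14 to 286 FPKM. The points of Cenpf spread most widely, with day 5 replicate 1 at 74.4 FPKM. Those of some other genes also spread, such as Prc1 (59.2 to 139 FPKM), Kif20b (19.2 to 41.4) and Kif18a (6.14 to 13.7).

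Replicates lay closer together for these genes than for most. The median absolute difference between replicates on the log2 scale was 0.11 on day 0 and 0.19 on day 5, beside 0.27 and 0.29 over all genes tested. On day 0 only Pttg1 differed by more than 0.5 between replicates, by 0.63, and on day 5 there were 3 such genes, with Cenpf the farthest apart at 1.76. Neither day 5 library was generally the higher of the pair, since replicate 1 lay above replicate 2 in 24 of the 50 genes.

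The cells carried the RNA of their labelled lineage, beside some markers of other lineages. Of 10 erythroid markers 8 rose, with a summed level of 1936 and 1372 FPKM on day 0 and 30656 and 26064 on day 5, and Gata1 and Klf1 were present on both days without passing (limma adjusted p = 0.076 and 0.0538). Of 10 myeloid markers 5, among them Mpo, Elane and Csf1r, were listed at 0 in all 4 libraries. The list summed to 102 and 148 FPKM on day 0 and to 8.93 and 10.5 on day 5. Most of the day 0 sum came from Sfpi1 (55.4 and 101 FPKM) and Coro1a (38.7 and 41.2). Both passed as lower on day 5, at 2.37 and 3.55 FPKM and at 3.32 and 5.01. Fcgr2b also fell, from 6.38 and 4.60 FPKM to 0 in both day 5 libraries. Cebpa lay higher on day 5 without passing (limma adjusted p = 0.149). Fibroblast and lymphoid markers summed to 158 and 145 FPKM, nearly all from Vim, and then to 10.3 and 7.88, with 2 of 7 listed at 0 throughout. Mast cell and megakaryocyte markers summed to 67.0 and 22.6 FPKM and then to 136 and 109, with 2 of 8 listed at 0 throughout. Among them Itga2b rose from 15.4 and 7.32 FPKM to 104 and 92.8, and Hdc fell from 10.2 and 6.13 to 0.382 and 0.376. The part of these shifts in the values of the mitosis genes was not tested. The 4 libraries summed to between 758150 and 787494 FPKM. Read depth is unknown, since FPKM do not carry it.

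Promoter sequences in the RefSeq table (build GRCm38.p6, from 250 bases before to 50 after the annotated start) were found for 43 of the 50 genes, in 47 entries. They were searched on both strands for the NF-Y box CCAAT, for the CHR letters TTTGAA and TTTAAA, and for the E2F letters TTTCCCGC, TTTGGCGC and TTCCCGCC, of which the first and the last overlap in sequence. TTTGAA or TTTAAA was found in 38 of the 47 entries (80.9%), beside 27.6% of all 32851 promoters in the table and 18.8% of the 9541 promoters of genes tested here. CCAAT was found in 32 entries (68.1%), beside 37.4% and 38.9%, and at least 2 copies of it in 19 (40.4%), beside 11.7% and 15.5%. Both kinds stood together in 30 entries (63.8%), beside 10.7% and 7.76%. The E2F letters were found in 5 entries (10.6%), beside 3.21% and 6.23%. The median GC content was 59.0% for the entries of these genes and 61.0% for those of all genes tested.

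The copies of CCAAT crowded before the start site, with 43 of 63 (68.3%) inside the 100 bases before it, beside 43.6% of the copies in all promoters. Copies were counted per entry, so sites shared by overlapping entries of Ect2, Prc1 and Bub3 count more than once. Copies of the CHR letters had their median at base -19 from the start, beside -127 in all promoters, and 22 of the 57 copies lay after the start. Their share inside the 100 bases before it was 31.6%, beside 31.1% in all promoters. A match is only a run of letters, and no binding was measured at these sites. Below, matched letters stand in capitals in the 250 bases before and 30 bases after the start, written 5′ to 3′ along the gene. The first 4 stand for 4 combinations of matches found among these genes, each by its most abundant gene. Ccnb1 and Plk1 were added after their values were seen, as a pair with the same kinds of match whose RNA levels lay on opposite sides of day 0.
Top2a (chr11:99024160-99024439, minus strand): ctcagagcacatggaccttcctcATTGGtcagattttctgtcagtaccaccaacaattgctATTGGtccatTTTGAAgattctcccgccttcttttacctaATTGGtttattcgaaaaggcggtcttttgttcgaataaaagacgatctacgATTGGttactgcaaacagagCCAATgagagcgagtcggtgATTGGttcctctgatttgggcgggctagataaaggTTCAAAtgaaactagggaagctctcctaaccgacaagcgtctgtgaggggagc
Birc5 (chr11:117848987-117849266, plus strand): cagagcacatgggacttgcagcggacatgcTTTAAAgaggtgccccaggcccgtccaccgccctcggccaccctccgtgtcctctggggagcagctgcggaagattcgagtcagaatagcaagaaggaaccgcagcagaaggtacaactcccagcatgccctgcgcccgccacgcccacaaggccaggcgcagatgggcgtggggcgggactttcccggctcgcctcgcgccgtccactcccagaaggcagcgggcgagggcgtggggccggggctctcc
Ncapg2 (chr12:116405186-116405465, plus strand): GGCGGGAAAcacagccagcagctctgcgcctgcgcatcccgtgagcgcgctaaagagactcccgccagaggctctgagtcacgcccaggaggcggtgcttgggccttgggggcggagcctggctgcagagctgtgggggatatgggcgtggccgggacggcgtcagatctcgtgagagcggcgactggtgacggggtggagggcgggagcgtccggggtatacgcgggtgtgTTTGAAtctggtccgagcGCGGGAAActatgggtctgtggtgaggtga
Bub1 (chr2:127831830-127832109, minus strand): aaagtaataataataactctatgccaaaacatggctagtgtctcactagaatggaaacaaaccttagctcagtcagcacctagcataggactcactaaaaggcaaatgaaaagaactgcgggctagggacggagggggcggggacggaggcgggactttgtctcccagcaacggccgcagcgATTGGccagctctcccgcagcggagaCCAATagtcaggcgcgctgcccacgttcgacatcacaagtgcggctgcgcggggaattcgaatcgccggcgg
Ccnb1 (chr13:100786457-100786736, minus strand): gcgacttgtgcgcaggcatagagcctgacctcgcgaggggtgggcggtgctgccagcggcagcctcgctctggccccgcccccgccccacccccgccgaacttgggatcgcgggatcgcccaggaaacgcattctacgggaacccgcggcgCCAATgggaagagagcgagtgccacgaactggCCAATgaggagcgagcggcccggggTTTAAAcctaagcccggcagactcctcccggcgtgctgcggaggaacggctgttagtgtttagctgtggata
Plk1 (chr7:122159185-122159464, plus strand): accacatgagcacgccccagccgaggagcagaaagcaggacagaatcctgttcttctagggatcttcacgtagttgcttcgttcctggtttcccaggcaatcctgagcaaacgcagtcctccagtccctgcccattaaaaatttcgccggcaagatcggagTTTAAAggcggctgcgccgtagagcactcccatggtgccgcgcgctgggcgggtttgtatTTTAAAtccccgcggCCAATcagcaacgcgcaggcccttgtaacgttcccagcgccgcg
Top2a, which untangles DNA, carried 6 copies of CCAAT (or ATTGG, the same box read on the other strand) and 2 of the CHR letters. Birc5 had only TTTAAA, far from its start at base -220, and Bub1 had 2 CCAAT boxes and no CHR letters. Ncapg2 had TTTGAA at base -18 and E2F letters at bases -250, -249 and 1. Ccnb1 had 2 CCAAT boxes and TTTAAA at base -42, and Plk1 had 1 CCAAT box at base -14 and TTTAAA at bases -89 and -29, with TTTGAA at base 31 just past the stretch printed. Genes with both CCAAT and CHR letters and no E2F letters (25 genes) had a median log2 fold change of 0.19. They ranged from -0.48 to 1.52. The 6 genes with CHR letters alone had a median of 0.18 and ranged from -0.77 to 0.61. The 6 genes with an entry that held no match had 0.06 and ranged from -0.18 to 0.65. Each other combination held 1 or 2 genes, and differences between combinations were not tested. Ncapd3, with 2 entries of different content, counts in more than 1 such combination.

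Among the kinases and cyclins that drive entry into mitosis, cyclin B1 and Plk1 lay farthest from day 0, in opposite directions. Ccnb1, which encodes the main mitotic cyclin, held 157 and 126 FPKM on day 0 and 243 and 214 on day 5. Both day 5 libraries lay above both day 0 libraries, with a 1.61-fold higher mean (log2 fold change 0.69 ± 0.19 SE, 95% interval 0.22 to 1.16). Plk1, the polo kinase of centrosomes and kinetochores, held 105 and 99.7 FPKM on day 0 and 75.9 and 70.9 on day 5. Its day 5 libraries lay below both day 0 libraries (log2 fold change -0.48 ± 0.16 SE, limma adjusted p = 0.0902).

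The other 4 genes of this group stayed nearer to their day 0 level. Cdk1, the kinase that cyclin B activates, held 175 and 161 FPKM on day 0 and 163 and 142 on day 5, and the groups overlapped. Ccna2, the cyclin of S phase and early mitosis and the most abundant of the group by mean level over both days, held 219.7 and 256 FPKM and then 224 and 182, again with overlap. Aurka, the centrosome kinase, held 86.7 and 86.0 FPKM and then 74.8 and 77.6, without overlap (log2 fold change -0.18, limma adjusted p = 0.438). Ccnb2, the second B-type cyclin, held 76.1 and 80.7 FPKM and then 82.7 and 87.5. After quantile normalization the log2 fold changes of Cdk1 and Ccna2 turned from -0.14 and -0.23 to 0.07 and 0.03.

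The ratios of Ccnb1 to Cdk1, Ccna2 and Ccnb2 are given as a description of these 4 libraries. All ratios given here and for other genes below were chosen after the values were seen and carry no test. Of the 13 ratios computed, 8 had the days apart and 5 had them overlap. Among single genes tested, 40.2% had both day 5 libraries above both day 0 libraries and 27.0% had both below. Ratios computed but not printed are Ncapg2 to Ncapg and Fzr1 to Cdc20, with the days apart. Those of Ncapd3 to Ncapd2, Aurka to Tpx2 and Pttg1 to Espl1, also not printed, overlapped. Per library, Ccnb1 stood at 0.899 and 0.78 times the FPKM of Cdk1 on day 0 and at 1.49 and 1.51 times on day 5. Against Ccna2 it stood at 0.715 and 0.492 times on day 0 and at 1.08 and 1.18 times on day 5. Against Ccnb2 it stood at 2.06 and 1.56 times on day 0 and at 2.94 and 2.45 times on day 5. In each of the 3 ratios both day 5 libraries lay above both day 0 libraries. The 3 share Ccnb1, which itself did not pass (limma adjusted p = 0.0573), so they are not separate observations.

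The chromosomal passenger complex corrects faulty attachments of chromosomes to the spindle and later guides cytokinesis. Of its 4 genes 3 overlapped between days, as did 3523 of the 10736 genes tested. Birc5, which encodes survivin, held 190.1 and 234 FPKM on day 0 and 261 and 194 on day 5. Its replicates differed more than its days, and the log2 fold change of 0.09 turned negative without day 0 replicate 1 (-0.06) and without day 5 replicate 1 (-0.12). Aurkb, the kinase of the complex, held 50.04 and 36.7 FPKM and then 38.4 and 45.6, also within its own spread. Cdca8, which encodes borealin, held 98.8 and 92.7 FPKM and then 123 and 97.9 (log2 fold change 0.19 ± 0.18 SE). Incenp, the scaffold subunit, was the exception to the overlap, with 85.8 and 81.6 FPKM and then 64.2 and 69.4 (log2 fold change -0.32, limma adjusted p = 0.203).

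The spindle checkpoint holds back anaphase until every chromosome is attached. In 3 of its 5 genes both day 5 libraries lay below both day 0 libraries, as in 27.0% of all genes tested, and the group had the lowest median log2 fold change of the 8 roles, -0.20. Bub1, a checkpoint kinase at kinetochores, held 60.1 and 61.1 FPKM on day 0 and 41.6 and 47.0 on day 5. Its day 5 libraries were the lower pair (log2 fold change -0.44 ± 0.17 SE, unadjusted p = 0.0465), and the difference did not pass (limma adjusted p = 0.123). Bub1b, which encodes the inhibitor BubR1, held 68.4 and 54.3 FPKM and then 49.7 and 45.6. Bub3, which docks both to kinetochores and was the most abundant of the group, held 131 and 132 FPKM and then 120.1 and 109. Mad2l1, the APC/C inhibitor, held 102 and 115 FPKM and then 93.7 and 107, with overlap. Ttk, which encodes the kinase Mps1 at the top of the checkpoint, lay the other way, at 24.5 and 23.7 FPKM and then 34.8 and 28.6 (log2 fold change 0.38, limma adjusted p = 0.225).

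Of the APC/C activators and their targets, Cdc20 and Pttg1 overlapped between days and Fzr1 and Espl1 lay above day 0. Of the 10736 genes tested, 3523 overlapped and 4317 (40.2%) lay above. Cdc20, which activates the APC/C at anaphase, held 107 and 86.1 FPKM on day 0 and 92.7 and 93.5 on day 5. Fzr1, which encodes Cdh1, the activator that keeps the APC/C on in G1 and in cells that have left the cycle, held 37.8 and 26.5 FPKM and then 52.4 and 40.6. Its day 5 libraries lay above both day 0 libraries, but the spread was wide (log2 fold change 0.53 ± 0.25 SE, 95% interval -0.11 to 1.17, limma adjusted p = 0.187). Espl1, which encodes the protease separase, held 25.1 and 20.1 FPKM and then 26.8 and 26.6. Pttg1, which encodes its inhibitor securin, held 63.9 and 99.1 FPKM and then 64.9 and 88.3, with the replicates farther apart than the days. The direction of Pttg1 (log2 fold change -0.07) turned after quantile normalization and without day 0 replicate 2 or day 5 replicate 1, at 0.02, 0.24 and 0.15.

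At the kinetochore, 4 of 6 genes had both day 5 libraries above both day 0 libraries, as did 40.2% of all genes tested, and Spc24 lay below. The Ndc80 complex, which grips microtubules, is built from the products of Ndc80, Nuf2, Spc24 and Spc25. Spc24 was the most abundant of the 4, at 153 and 146 FPKM on day 0 and 117 and 129.8 on day 5 (log2 fold change -0.27 ± 0.16 SE, limma adjusted p = 0.259). Ndc80 itself was the lowest, at 19.6 and 23.2 FPKM and then 22.8 and 29.8, with overlap. Nuf2 held 63.0 and 58.1 FPKM and then 72.3 and 65.6. Spc25 held 48.0 and 52.04 FPKM and then 63.4 and 60.4. The order Spc24, Nuf2, Spc25, Ndc80 was the same in each of the 4 libraries, and Spc24 stood at 7.78 and 6.30 times the FPKM of Ndc80 on day 0 and at 5.14 and 4.36 times on day 5. The ratios to Ndc80 of Nuf2 (3.21 and 2.50, then 3.17 and 2.21) and of Spc25 (2.45 and 2.24, then 2.78 and 2.03) overlapped between days.

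Cenpf, a large protein of the nuclear matrix and outer kinetochore, had the largest difference of the 50 genes and also the least certain. It held 13.6 and 13.1 FPKM on day 0 and 74.4 and 21.3 on day 5. Both day 5 libraries were above day 0, but replicate 1 far more than replicate 2. The log2 fold change was 1.52 ± 0.57 SE with a 95% interval from 0.08 to 2.96 (limma adjusted p = 0.116), and without day 5 replicate 1 it was 0.64 and without day 5 replicate 2 2.40. Cenpe, the kinesin that carries chromosomes to the spindle equator, held 34.3 and 35.1 FPKM and then 35.7 and 41.2.

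The mitotic kinesins split evenly, with 5 of 10 genes above and 5 below their day 0 mean. Of the 10736 genes tested, 6212 had a positive log2 fold change. Kif20b, a kinesin of the late stages of cell division, held 33.4 and 41.4 FPKM on day 0 and 19.2 and 23.7 on day 5. It lay farthest below day 0 of the 50 genes (log2 fold change -0.77 ± 0.22 SE, 95% interval -1.34 to -0.21) without passing. Kif20a, a relative that works at the central spindle and the most abundant kinesin of the list, held 70.01 and 64.0 FPKM and then 59.4 and 62.3. Its own difference was small (log2 fold change -0.14, limma adjusted p = 0.576), so that Kif20b stood at 0.477 and 0.647 times Kif20a on day 0 and at 0.324 and 0.38 times on day 5.

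Kif14, a motor of cytokinesis and the least abundant gene of the list on day 0, held 7.87 and 6.39 FPKM and then 11.3 and 9.27, without overlap (log2 fold change 0.48 ± 0.27 SE, limma adjusted p = 0.243). After quantile normalization its log2 fold change was 0.16. Kif18a, which dampens chromosome movements, held 13.7 and 11.3 FPKM and then 6.14 and 10.2. Its interval was wide, from -1.38 to 0.20. Kif4, a chromosome-bound motor, held 45.9 and 40.7 FPKM and then 63.3 and 54.3 (limma adjusted p = 0.152), and Kif22, which pushes chromosome arms, held 57.4 and 53.8 FPKM and then 47.3 and 38.5 (0.209). The other 4 kinesin genes, Kif11, Kif15, Kif23 and Kif2c, had log2 fold changes between -0.24 and 0.29. Kif11, the motor that separates the spindle poles, held 53.5 and 53.6 FPKM and then 60.7 and 59.4.

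The genes of the spindle midzone and cytokinesis had the highest median log2 fold change of the 8 roles, 0.37, and in 4 of 6 the day 5 libraries lay above both day 0 libraries, beside 40.2% of all genes tested. Nusap1, a microtubule bundling protein, held 42.5 and 45.8 FPKM on day 0 and 69.7 and 70.2 on day 5. The replicates lay close together and the days apart (log2 fold change 0.65 ± 0.17 SE, 95% interval 0.23 to 1.07). Prc1, which crosslinks midzone microtubules, held 59.2 and 78.8 FPKM and then 139 and 86.3. Its log2 fold change of 0.68 rested largely on day 5 replicate 1, and was 0.33 without that library. Racgap1, a subunit of centralspindlin and the most abundant of the group by mean, held 118 and 104 FPKM and then 142 and 153 (log2 fold change 0.41 ± 0.16 SE, limma adjusted p = 0.129).

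Anln, which encodes the scaffold anillin of the contractile ring, held 81.0 and 75.3 FPKM and then 97.7 in both day 5 libraries (limma adjusted p = 0.199). Ect2, which activates RhoA at the ring, held 32.2 and 31.3 FPKM and then 25.6 and 35.1, with overlap. Tpx2, which activates Aurora A and nucleates microtubules, had the lowest log2 fold change of the group, at 98.6 and 88.3 FPKM and then 87.6 and 69.3 (log2 fold change -0.26 ± 0.19 SE, limma adjusted p = 0.368).

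Condensins fold chromosomes into their compact mitotic form. Their genes were grouped with Top2a and Mki67, which do not encode condensin subunits. In 6 of the 9 genes of this group both day 5 libraries lay above both day 0 libraries, beside 40.2% of all genes tested. The 6 were Top2a, Mki67 and the condensin genes Smc4, Ncapd2, Ncapd3 and Ncapg2. Smc2 lay below day 0 in both day 5 libraries, and Ncapg and Ncaph overlapped. Ncapd2, a HEAT-repeat subunit of condensin I, held 66.1 and 53.0 FPKM on day 0 and 95.6 and 92.0 on day 5. Its day 5 libraries stood apart from day 0, 1.58-fold higher by mean (log2 fold change 0.66 ± 0.19 SE, 95% interval 0.19 to 1.12). Ncapd3, its counterpart in condensin II, held 27.6 and 31.0 FPKM and then 40.0 and 51.1. It also lay above day 0 without overlap (log2 fold change 0.61 ± 0.21 SE, limma adjusted p = 0.094). The days overlapped for the kleisin gene Ncaph, at 41.0 and 41.2 FPKM and then 41.3 and 31.9, and for Ncapg, at 71.1 and 80.3 and then 63.0 and 81.7. No test of a difference between subunits was made.

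The ATPase genes Smc2 and Smc4, common to both condensins, held unequal levels. Smc4 held 138 and 147 FPKM on day 0 and 157 and 182 on day 5, and Smc2 held 49.4 and 57.9 and then 47.2 and 48.6. Smc4 thus stood at 2.80 and 2.54 times the FPKM of Smc2 on day 0 and at 3.32 and 3.74 times on day 5. Ncapg2, of condensin II, held 54.4 and 57.4 FPKM and then 62.1 and 71.3. Top2a, the topoisomerase of mitotic chromosomes and the most abundant of the 50 genes on day 5, held 222 and 225 FPKM and then 258 and 286. Mki67, which coats mitotic chromosomes and is the usual marker of proliferating cells, held 223 and 209.6 FPKM and then 258 and 236. Both lay above day 0 in each day 5 library, with log2 fold changes of 0.28 and 0.19 (limma adjusted p = 0.242 and 0.408).

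**Figure D2:**
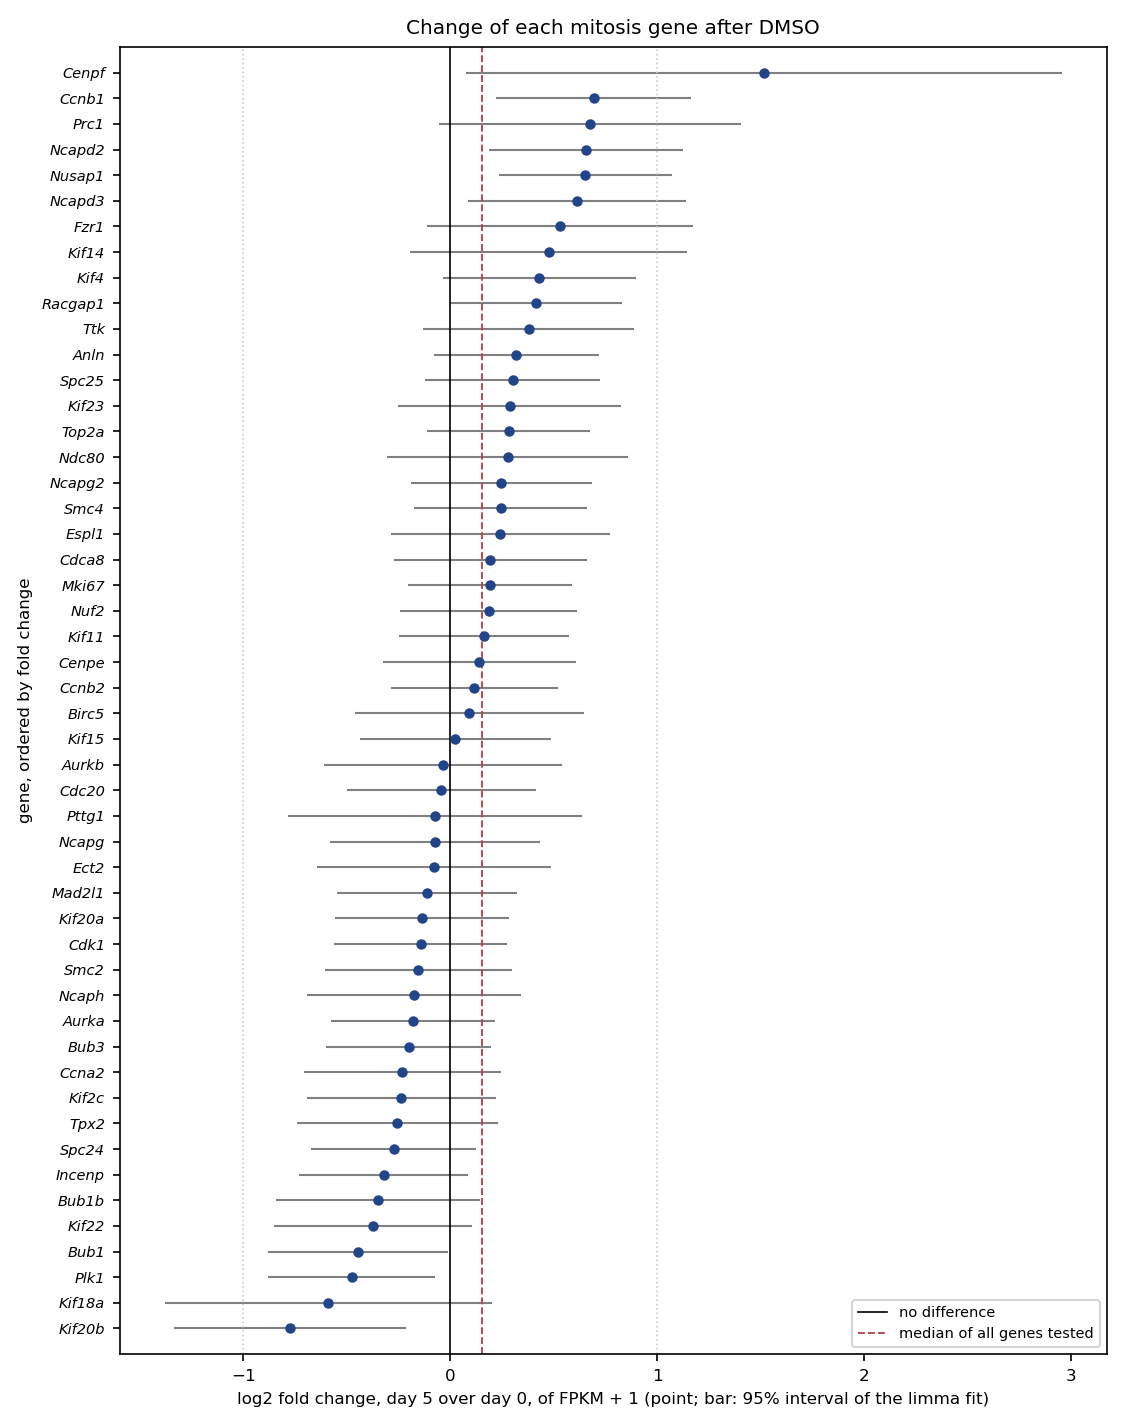
Log2 fold change of FPKM + 1, day 5 over day 0, of each of the 50 genes with its 95% interval from limma. A solid line marks no difference, a dashed line the median of all genes tested (0.15) and dotted lines log2 fold changes of -1 and 1. The points run from -0.77 (Kif20b) to 1.52 (Cenpf), and 40 intervals stay between the dotted lines.

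Other genes of the same pathway were taken from lists drawn up by function, and their shares past the threshold are read against the 18.5% of all genes tested (10.7% higher, 7.81% lower). The shares were 29.4% of the APC/C list, 20.0% of the centromere list, 20.0% of the checkpoint list, 30.8% of the entry list, 4.0% of the spindle list, 28.6% of the factor list and 19.6% of the replication list. Those of the centromere, checkpoint and replication lists lay near that of all genes, and the others rest on at most 5 called genes each. Of 17 genes of the APC/C and its ubiquitin enzymes 4 rose and 1 fell. Anapc2, of its catalytic core, rose from 37.8 ± 2.82 to 69.1 ± 0.609 FPKM, and the scaffold gene Anapc5 and the subunit gene Cdc27 had log2 fold changes of 0.71 and 0.68. The row 3200002M19Rik, an older name of the subunit gene Anapc15, fell from 77.2 ± 8.27 to 27.2 ± 3.29 FPKM. Of 25 inner centromere and other kinetochore genes 3 rose and 2 fell. Mis12, which links the centromere to the Ndc80 complex, rose from 21.6 ± 1.33 to 62.04 ± 2.63 FPKM, and Pmf1, a subunit of the same Mis12 complex, fell from 123 ± 2.59 to 45.5 ± 6.32. Cenpc1 and Hjurp, both needed for the centromeric nucleosome, rose (log2 fold change 0.94 and 0.82), and Cenpw fell (-1.22).

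Of 10 other checkpoint and cohesion protection genes, Mad2l1bp rose (log2 fold change 1.15) and Trip13 fell (-1.13). Their products are known to act together in taking the checkpoint protein Mad2 apart from its complex. Of 13 mitotic entry kinases and phosphatases 2 rose and 2 fell. Cdc25b, a phosphatase that activates Cdk1, held 20.6 and 18.1 FPKM on day 0 and 90.1 and 106 on day 5 (log2 fold change 2.28 ± 0.19 SE, limma adjusted p = 0.00658), while Cdc25a, of the same family, fell from 39.0 ± 6.15 to 18.7 ± 0.381 FPKM. Ensa and Arpp19, which encode related inhibitors of the phosphatase PP2A in mitosis, moved apart: Ensa rose from 118 ± 5.09 to 241 ± 16.7 FPKM, and Arpp19 fell from 240.2 ± 74.2 to 99.4 ± 20.7. Of 25 other spindle and centrosome genes Tacc3 alone passed, and it fell from 284 ± 2.27 to 146 ± 33.8 FPKM.

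Of 14 genes of the factors that read mitotic promoters, 1 rose and 3 fell. Mybl2, the activator that joins the MuvB core, held 77.0 and 83.3 FPKM on day 0 and 33.2 and 21.97 on day 5. It fell in both libraries (log2 fold change -1.53 ± 0.24 SE, limma adjusted p = 0.0211). E2f4, of the repressor form of the complex, fell from 108 ± 1.67 to 50.8 ± 9.21 FPKM, and its dimer partner Tfdp1 from 179 ± 5.19 to 97.8 ± 7.96. Foxm1, the other activator, held 25.2 and 18.6 FPKM on day 0 and 22.3 and 22.2 on day 5. Its log2 fold change was 0.04 with a 95% interval from -0.55 to 0.62, and turned to -0.13 after quantile normalization and to -0.17 without day 0 replicate 2. Lin52, a subunit of the MuvB core, rose from 4.73 ± 0.395 to 11.3 ± 0.951 FPKM.

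DNA replication genes, the part of the cell cycle program that precedes mitosis, lay lower. Of 46 such genes 9 fell and 0 rose, beside 7.81% and 10.7% of all genes tested. An unadjusted limma p under 0.05 was found for 23, all of them lower. Over all genes tested the share was 38.6% in either direction, with 1676 of 10736 genes lower. The median log2 fold change of the 46 genes was -0.58, beside 0.10 for the mitosis genes and 0.15 for all genes tested. In 34 of the 46 both day 5 libraries lay below both day 0 libraries, beside 14 of the 50 mitosis genes and 27.0% of all genes tested. Cdt1, which loads the replicative helicase, fell from 87.6 ± 15.02 to 31.05 ± 3.98 FPKM, Mcm3, a helicase subunit, from 123 ± 24.9 to 59.0 ± 6.60, and Pold1, a DNA polymerase subunit, from 27.3 ± 0.942 to 13.3 ± 0.878. The difference between the lists was not tested.

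**Figure D3:**
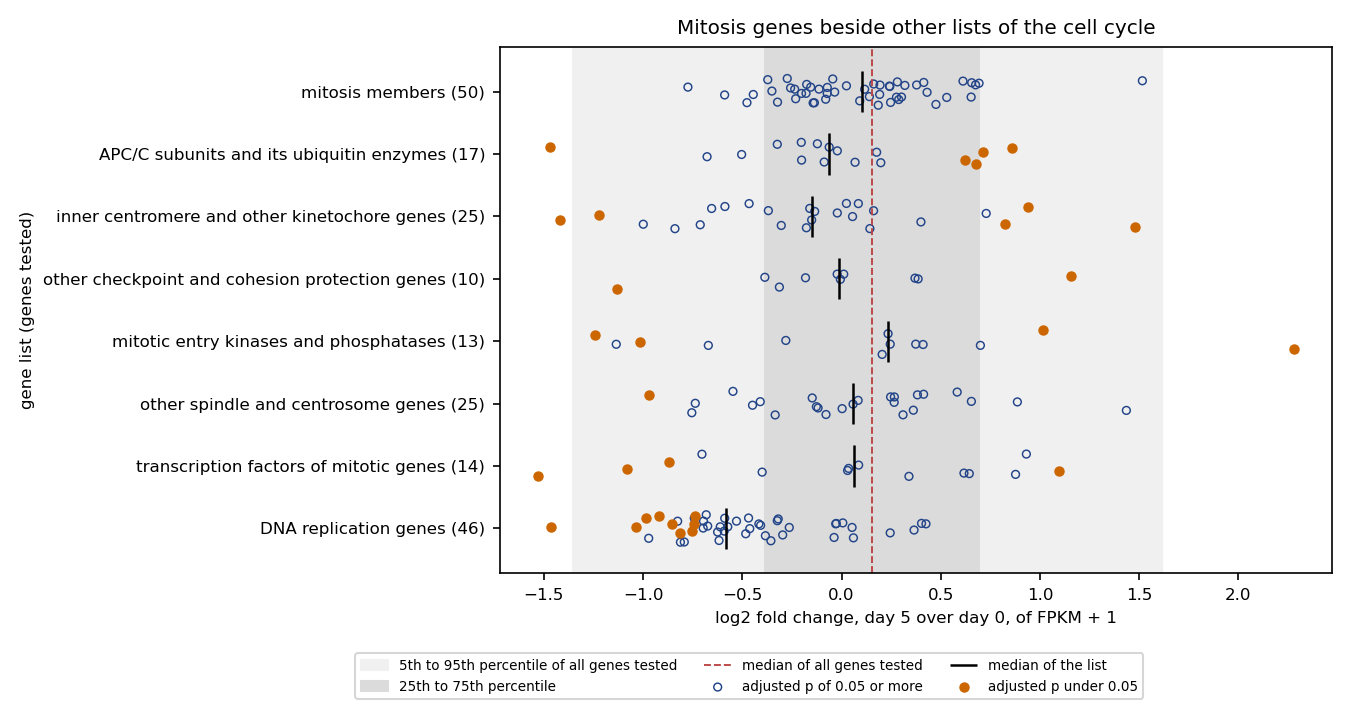
Log2 fold change of FPKM + 1, day 5 over day 0, of each gene of the mitosis list and of 7 other lists of the cell cycle, with filled points for limma adjusted p under 0.05, a black bar at each list's median and grey bands for the middle 50% and 90% of all genes tested. Every mitosis gene is an open point, and the replication genes centre on -0.58.

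The calls in these other lists rest on few libraries. Any fit with 1 of the 4 libraries left out has a lone library on 1 day. Such a fit cannot uphold the calls of the 23 genes named above. Nor could it turn their direction, because the days of these genes did not overlap. With no filter on low FPKM 2 of the 23 passed, and without a variance trend 14. With the replicate block 18 passed, and Cdc27, Lin52, Hjurp, Cenpc1 and Trip13 did not. After quantile normalization Lin52, Arpp19, Tacc3 and Cenpc1 did not pass, and Trip13 did not with a pseudocount of 0.1 or with globin or mitochondrially encoded genes removed.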

How the data were processed

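RNA was measured in 4 MEL libraries, 2 per day. The authors deposited FPKM per gene and library. Per the submitters' processing notes Bowtie was used and the build was mm9. What computed the FPKM is not stated there. The members and gene lists were chosen with earlier results of these data known. Values were used as log2(FPKM + 1), so fold changes understate those of low genes. Rows reaching 1 FPKM in 2 or more libraries were fitted with limma 3.58.1 in R 4.3.3 (intercept and day, eBayes with trend, two-sided), with p-values adjusted over all 10736 genes and called under 0.05. The fit was tested on simulated data. Named genes were, in each role, the gene with the highest mean FPKM and those with the largest log2 fold change in each direction, and the other members are also printed, chosen after their values were seen. In the other lists up to 3 called genes per direction were named, those with the largest changes, besides Foxm1, Mybl2 and E2f4. Alternatives were pseudocounts of 0.1 and 0.5, no filter and one of 5 FPKM, quantile normalization, globin or mitochondrially encoded genes removed, no variance trend, a replicate block, and each library left out. The PU.1, DNase and ChIA-PET region lists are on mm9 and were not used here, as gene positions at hand are on GRCm38. Where nothing shows how separate the cultures were, p-values cover only the spread between these libraries.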

Additional observations from a re-analysis of the deposited data

How the results depend on the processing

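The count of members past the threshold was 0 and became 1 with a filter of 5 FPKM, with quantile normalization, with globin genes removed and with mitochondrially encoded genes removed. It stayed at 0 in each fit that left out 1 library, with other pseudocounts, with no filter, without a variance trend and with the replicate block. All genes past the threshold numbered 1989, 364 of 13956 with no filter beyond a value above 0 in 2 libraries, and 0 to 13 with 1 library left out, where the lone library is assumed to vary like the other day. Leaving out a library gave unadjusted p-values under 0.05 for 2504 to 3440 genes.

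Nothing shows that the replicate numbers pair the samples. Deviations of replicate 1 correlated at 0.05 between days across 10736 genes, which cannot settle whether the samples were paired. With the replicate block 1797 genes and 0 members passed.

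Of 650 values of single members under alternatives, 628 kept direction and side of the threshold and 4 came to pass it. Another 18 turned, none past the threshold in either fit. The direction could not turn in every alternative. The filters, the fit without a variance trend and the replicate block leave each log2 fold change as it was, so only the side of the threshold could move. Leaving out 1 library could not turn genes whose days did not overlap. After quantile normalization the turned log2 fold changes were 0.0718 (Cdk1), 0.0339 (Ccna2), 0.0208 (Mad2l1), 0.0735 (Cdc20), 0.0166 (Pttg1), -0.0633 (Kif15) and, outside the 50 genes, -0.13 (Foxm1). With 1 library left out the log2 fold changes ranged from -0.25 to 0.18 for Aurkb, -0.12 to 0.31 for Birc5, -0.20 to 0.11 for Cdc20, -0.38 to 0.24 for Pttg1, -0.0612 to 0.11 for Kif15, -0.30 to 0.14 for Ect2, -0.26 to 0.11 for Ncapg, -0.36 to 0.0057 for Ncaph and -0.17 to 0.24 for Foxm1. The cause was not tested. Alternatives planned for regions near start sites were not run, for want of gene positions on mm9.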
